A study of Homo sapiens with 6 samples.

Results

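The centromere and kinetochore genes described here are 37 genes that encode CENP-A and its loading factors, the inner centromere network, the outer kinetochore, and the chromosomal passenger complex with its centromeric partner shugoshin. They were taken by gene symbol from the platform annotation of the array. Of the 37 genes, 29 had a row, out of 14884 named genes in all. The other 8 (DSN1, MIS12, NSL1, PMF1, NUF2, SPC24, SPC25 and ZW10) are not analysed here, so the MIS12 complex is missing and the NDC80 complex is represented by NDC80 alone. The set was chosen by function, with earlier results of these data known. Among these, the signals of MIS18A and CENPK were known to be higher with both siRNAs. Their values against the control are therefore given as a description with no test, and the counts that include them support nothing by themselves. The lists set beside the members were chosen with the same knowledge, and no p-value given here allows for that choice.

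RNA had been taken from A549 cells, an established human lung cancer line, 48 hours after lipid transfection of MYEOV siRNA 1, MYEOV siRNA 2 or a control siRNA (siNC), with 2 arrays per group. MYEOV takes its name from myeloma overexpression. All groups therefore share the transfection and differ in the siRNA. The sources used here give neither the control siRNA's target nor any siRNA sequence. The labels do not say whether the 2 arrays of a group came from separate transfections, so a p-value reflects only how much these arrays vary, and that variation may be technical.

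The centromere is marked by nucleosomes that carry CENP-A, a histone H3 variant. HJURP is the chaperone that deposits CENP-A, and the Mis18 complex, made of MIS18A, OIP5 (Mis18 beta) and a partner protein, prepares the centromere for it after mitosis. On this chromatin sits the constitutive centromere network of CENP proteins, organised in sub-complexes named by their letters, which carries the outer kinetochore. The outer layer (KNL1, MIS12, NDC80 and SKA complexes) grips spindle microtubules, the RZZ complex recruits dynein and checkpoint proteins, and the chromosomal passenger complex corrects wrong attachments. Many of these genes are transcribed most in late cell cycle phases of dividing cells.

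Values are log2 signals made with RMA, which corrects background, equalises the arrays' distributions and summarises the probes of a transcript, and every difference is a log2 difference, with its standard error (SE) where given. Testing required a mean signal of at least 5.45 across the 6 arrays, the median for named genes, which 28 of the 29 measured members passed. ITGB3BP, which encodes CENP-R, did not pass. The word called means an adjusted p under 0.05 (Benjamini-Hochberg, limma) in the fit of all 7442 tested genes. MYEOV itself had signals of 5.34 and 5.19 with siRNA 1, 5.23 and 4.70 with siRNA 2, and 6.20 and 6.50 in the control arrays. All 4 MYEOV siRNA arrays lay below both control arrays and below the filter of 5.45. MYEOV passed that filter, at a mean of 5.53, only through the control arrays, so its fall is given as a description. It fell by 1.09 with siRNA 1 (limma adjusted p = 0.0215). With siRNA 2 it fell by 1.39 (limma adjusted p = 0.00516, and 0.0446 with no filter). For siRNA 1 the adjusted p was 0.135 with no filter, and 0.0880, 0.146, 0.0671 and 0.112 without siRNA 1 replicate 1, siRNA 1 replicate 2, control replicate 1 and control replicate 2. Of 8 epithelial markers of A549 cells, the 4 measured (KRT8, KRT18, KRT19 and EPCAM) passed the filter and none was called. With siRNA 2 their median change was -0.23, and KRT8 and KRT18 (lower) and EPCAM (higher) had an unadjusted p under 0.05. Their summed signals were 31.77 and 31.64 with siRNA 1, 30.82 and 31.34 with siRNA 2, and 31.73 and 31.56 in the control arrays, and their part in the results was not tested. Of 10 markers of leukocytes, endothelium and fibroblasts, the 3 measured (CD14, PECAM1 and VWF) were all below the filter, with summed signals of 10.64 and 11.61 with siRNA 1, 11.64 and 11.33 with siRNA 2, and 10.51 and 11.27 in the control arrays.

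MIS18A, CENPK and CENPQ were higher with both siRNAs, while CENPA, SKA1 and CDCA8 were lower with siRNA 2. With siRNA 1, 3 of 28 tested members were called, all higher and 0 lower, against 4.66% of all tested genes called (2.28% higher and 2.38% lower). At an unadjusted p under 0.05, 3 members were higher and 7 lower, against 9.82% and 9.39% of all tested genes, and limma called 1 of these, CDCA8, lower with the replicate number as a block, a robust prior with trend, or the stricter 75th percentile filter. With siRNA 2, 3 members were called higher and 3 lower, against 6.83% of all tested genes called (2.59% higher and 4.23% lower). At an unadjusted p under 0.05, 4 were higher and 4 lower, against 10.2% and 12.0% of all tested genes. Between the siRNAs, 3 members were called higher with siRNA 1 and 2 lower, against 9.15% of all tested genes called (5.37% higher and 3.78% lower). Here 4 were higher and 8 lower by the unadjusted p, against 13.0% and 10.6%. The counts against the control, called and unadjusted, include MIS18A and CENPK, which were known to be higher when the set was chosen. Nothing is therefore read from those counts beside the shares of all genes. The 2 control arrays serve both siRNA comparisons, which are therefore not independent. The median change of the 28 tested members was -0.03 with siRNA 1 and 0.05 with siRNA 2, and -0.0027 and 0.00054 over all tested genes.

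MIS18A encodes a core subunit of the Mis18 complex. Its signal was 7.92 and 8.17 with siRNA 1, 8.06 and 8.01 with siRNA 2, and 6.89 and 6.95 in the control arrays. The 4 MYEOV siRNA arrays lay close together and well above both control arrays. The change was 1.13 ± 0.10 (SE) with siRNA 1 and 1.11 ± 0.10 with siRNA 2, a signal 2.18-fold and 2.16-fold that of the control. Between the siRNAs MIS18A differed by 0.01 (95% confidence interval -0.21 to 0.24, limma adjusted p = 0.958), which bounds a difference but does not show equality.

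The other measured genes of CENP-A loading did not follow MIS18A. OIP5, which encodes the partner of MIS18A in the Mis18 complex, changed by -0.18 (interval -0.35 to -0.01) with siRNA 1 and 0.04 (interval -0.13 to 0.21) with siRNA 2, neither of them called. HJURP, the CENP-A chaperone, had signals of 9.42 and 9.51 with siRNA 1, 9.82 and 9.83 with siRNA 2, and 9.56 and 9.82 in the control arrays. Both siRNA 1 arrays were the lowest of the 6. HJURP was not called against the control with either siRNA, at -0.23 (limma adjusted p = 0.268) and 0.13 (0.498), and differed between siRNA 1 and siRNA 2 by -0.36 (0.0687). With the replicate number as a block that difference was called (limma adjusted p = 0.0401), as it was with the 75th percentile filter (0.0246). The trend and robust prior (0.0224), array weights (0.0478) and the fit to the siRNA arrays alone (0.0360) also called it. Leaving out either control array repeats that last fit.

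CENPA, the gene of the centromeric histone itself, was lower with siRNA 2. Its signal was 8.13 and 8.34 with siRNA 1, 7.46 and 7.62 with siRNA 2, and 8.07 and 8.13 in the control arrays. Both siRNA 2 arrays lay below the other 4 arrays, and the siRNA 1 arrays at or just above the controls. CENPA fell by 0.56 ± 0.10 (SE) with siRNA 2, that is the signal fell by 32.2% (limma adjusted p = 0.0187), and was not called with siRNA 1, at 0.14 (adjusted p = 0.508). The siRNAs differed by 0.70 (interval 0.47 to 0.93, limma adjusted p = 0.00629). Against the control, the siRNA 2 call was lost with no filter (adjusted p = 0.127) and without siRNA 2 replicate 1 (0.0952), control replicate 1 (0.0789) or control replicate 2 (0.0919). The difference between the siRNAs had adjusted p = 0.0553 with no filter.

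**Figure D1:**
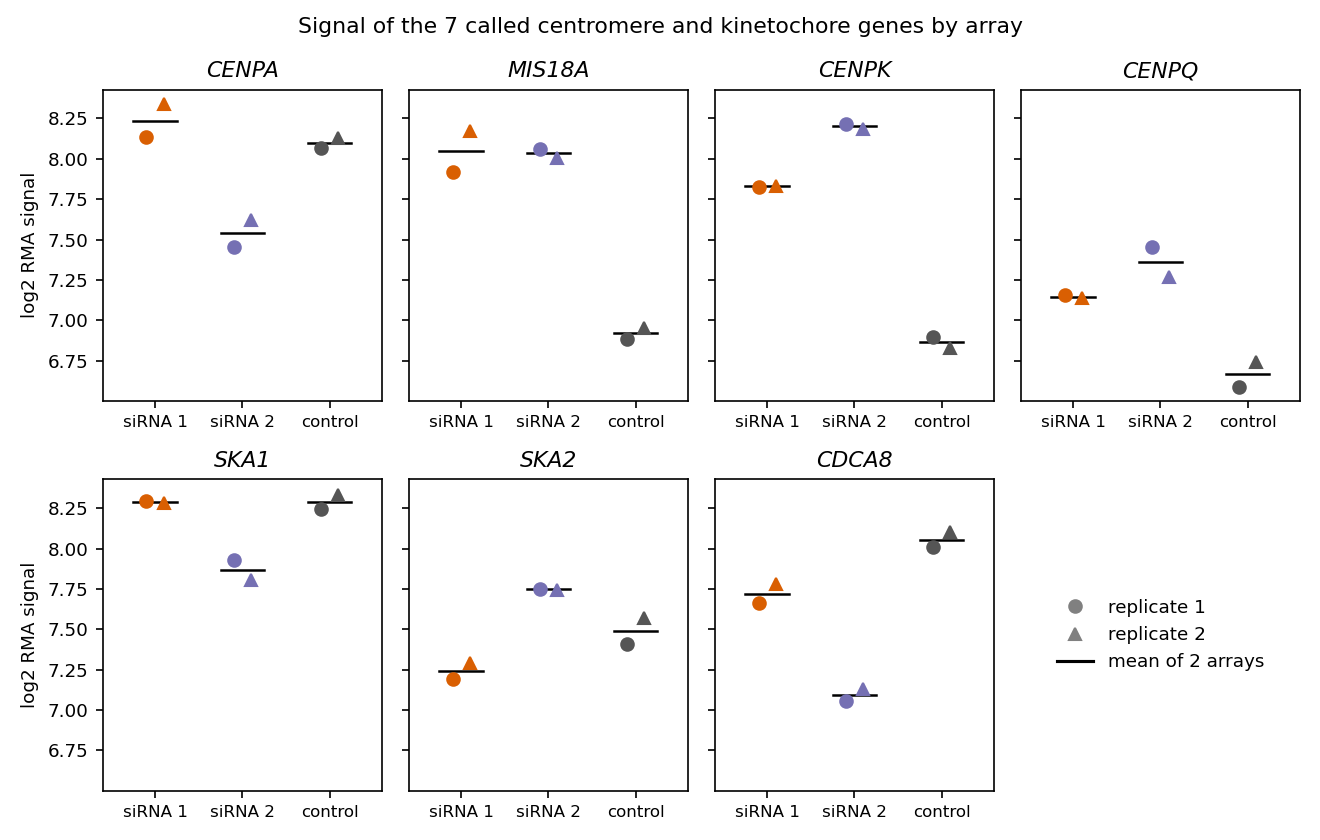
The log2 RMA signal of the 7 members called in any of the 3 comparisons is plotted for MYEOV siRNA 1, MYEOV siRNA 2 and the control siRNA, with a circle for replicate 1, a triangle for replicate 2 and a line at the mean of 2 arrays. MIS18A, CENPK and CENPQ are above the control in all 4 MYEOV siRNA arrays, CENPA and SKA1 are lower in the siRNA 2 arrays alone, CDCA8 is lowest with siRNA 2, and SKA2 lies on opposite sides of the control.

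In the inner centromere network, CENPK and CENPQ were the higher members, and they belong to different sub-complexes. They are 2 of 14 tested members with each siRNA, against 4.66% of all tested genes called with siRNA 1 and 6.83% with siRNA 2, and nothing is read from this count because CENPK was known to be higher when the set was chosen. CENPK belongs to CENP-HIKM, which links CENP-C and the CENP-A nucleosome to the rest of the network. Its signal was 7.83 and 7.83 with siRNA 1, 8.21 and 8.19 with siRNA 2, and 6.90 and 6.83 in the control arrays. The 3 groups were separate, with siRNA 2 highest. The change was 0.97 ± 0.07 (SE) with siRNA 1 and 1.34 ± 0.07 with siRNA 2, a signal 1.96-fold and 2.53-fold that of the control. CENPK was 0.37 lower with siRNA 1 than with siRNA 2 on the log2 scale (a change of -0.37, interval -0.53 to -0.21, limma adjusted p = 0.0180). That difference was not called with no filter (adjusted p = 0.127) or when 1 array was left out, with 0.0978 and 0.0980 for replicates 1 and 2 of siRNA 1 and 0.0986 and 0.0766 for those of siRNA 2.

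CENPH, CENPI and CENPM, which encode the partners of CENPK, changed by -0.01, 0.05 and 0.20 with siRNA 1 and by 0.09, 0.03 and 0.24 with siRNA 2, none called. The highest upper bounds of their 95% intervals were those of CENPM, at 0.50 with siRNA 1 and 0.55 with siRNA 2. The mean signal of CENP-HIKM relative to the control mean, 0.24 and 0.36 in the siRNA 1 arrays, 0.36 and 0.49 in the siRNA 2 arrays and -0.07 and 0.07 in the control arrays, includes CENPK.

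CENPQ, a CENP-OPQUR subunit with a part in microtubule binding and chromosome alignment, rose with both siRNAs. Its signal was 7.16 and 7.14 with siRNA 1, 7.45 and 7.27 with siRNA 2, and 6.59 and 6.74 in the control arrays. All 4 MYEOV siRNA arrays lay above both control arrays. The rise was 0.48 ± 0.09 (SE) with siRNA 1 (limma adjusted p = 0.0346) and 0.69 ± 0.09 with siRNA 2 (adjusted p = 0.00593), a signal 1.40-fold and 1.62-fold that of the control. With siRNA 1 the call was lost with no filter (adjusted p = 0.188) and without siRNA 1 replicate 1 (0.159), siRNA 1 replicate 2 (0.170), control replicate 1 (0.145) or control replicate 2 (0.0813), and with siRNA 2 only with no filter (0.0575) among the settings tried.

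The other subunits of CENP-OPQUR were not called. CENPU, the subunit that binds the mitotic kinase PLK1, changed by -0.20 with siRNA 1 and -0.24 with siRNA 2 (limma adjusted p = 0.228 and 0.140). All 4 MYEOV siRNA arrays lay below both control arrays for CENPU. Its unadjusted limma p was 0.0394 with siRNA 1 and 0.0206 with siRNA 2. CENPO changed by 0.04 and 0.11 and CENPP by 0.07 and -0.05. ITGB3BP, untested because it was dim, had signals of 5.28 and 5.34 with siRNA 1, 5.28 and 5.26 with siRNA 2, and 5.20 and 5.56 in the control arrays, and the groups overlapped.

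CENPC encodes the protein that bridges CENP-A nucleosomes and the outer kinetochore. It changed by 0.06 with siRNA 1 and -0.25 with siRNA 2, neither called. The siRNAs differed in CENPC by 0.31 (limma adjusted p = 0.180), a difference that was called with the replicate number as a block (adjusted p = 0.0308). Of the CENP-LN pair, which recognises the CENP-A nucleosome, CENPL changed by 0.03 and 0.09 and CENPN by -0.07 and 0.08 with siRNA 1 and siRNA 2. In CENP-TWSX, a histone-fold complex that recruits NDC80, CENPT changed by 0.02 and 0.20, CENPW by -0.06 and -0.03, and CENPX by -0.23 and -0.01. None of these 5 genes was called in any comparison, and CENPX had an unadjusted p of 0.0312 with siRNA 1.

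**Figure D2:**
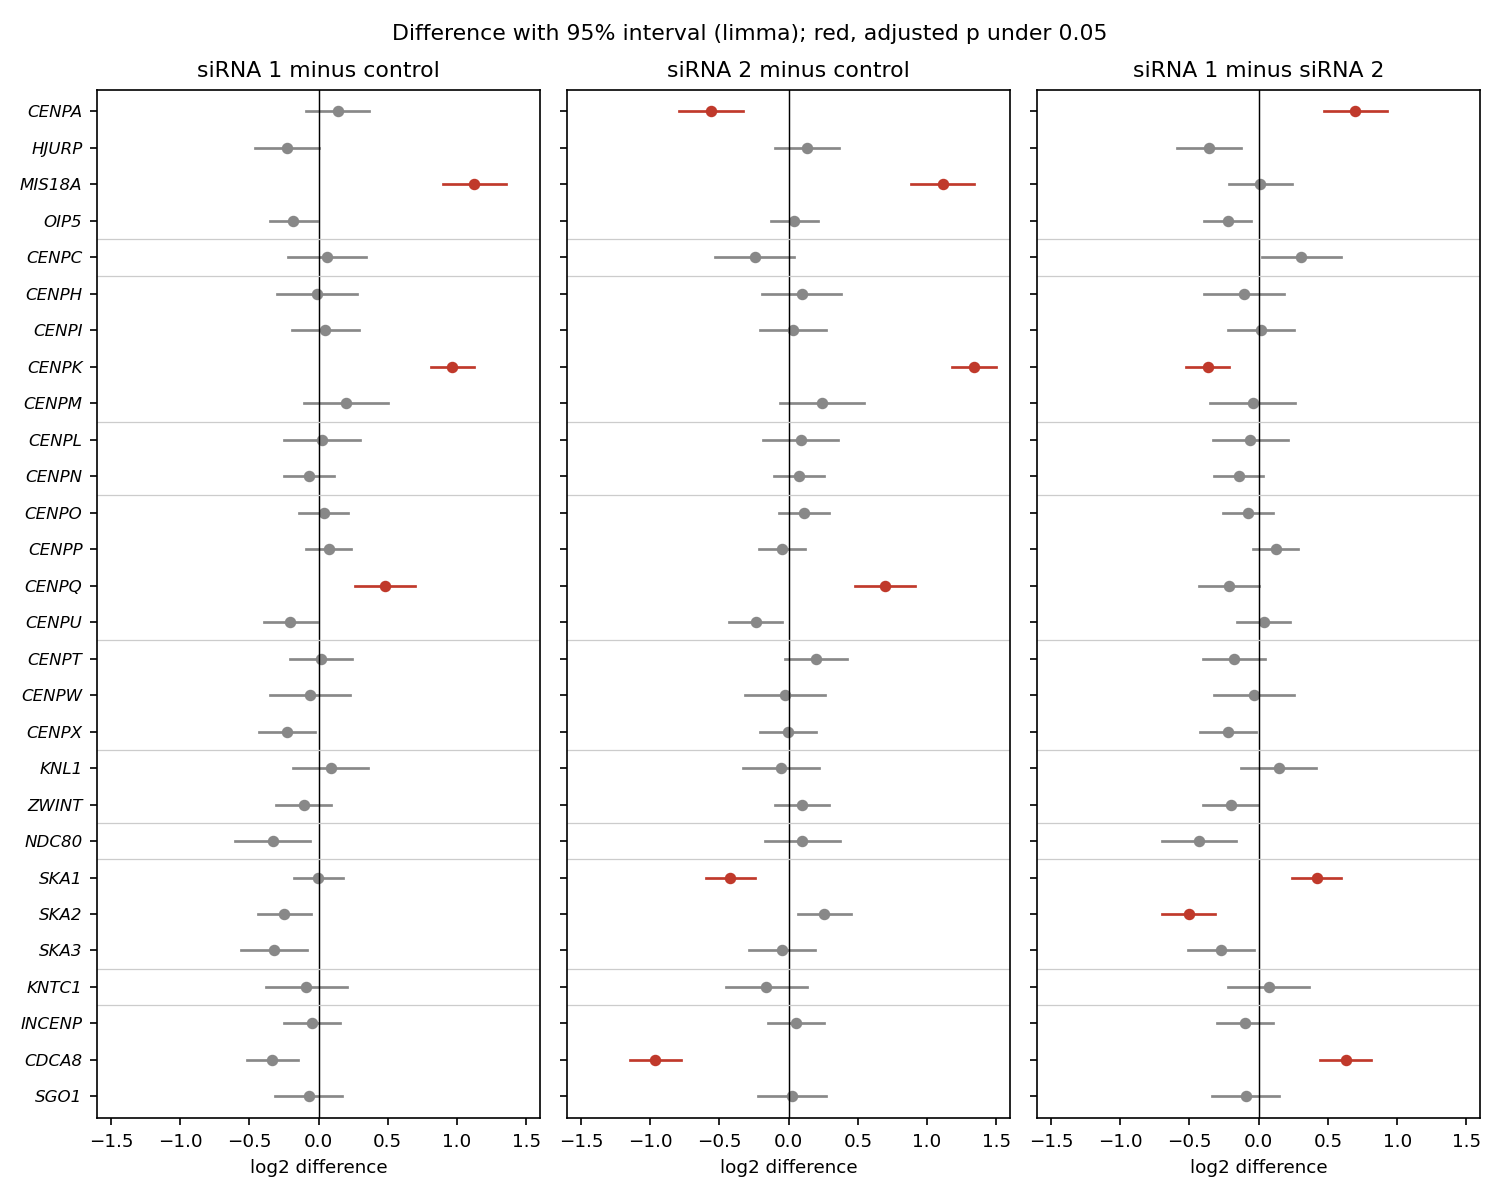
Each point is the log2 difference of a tested member and each bar its 95% confidence interval from limma, for siRNA 1 minus control (left), siRNA 2 minus control (middle) and siRNA 1 minus siRNA 2 (right), with grey lines between sub-complexes and called members in red. Called members stand among uncalled members of their own sub-complex, as CDCA8 does at -0.96 with siRNA 2 beside INCENP at 0.05.

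In the outer kinetochore, 0 of 7 tested members were called with siRNA 1 and 1 with siRNA 2, against 4.66% and 6.83% of all tested genes. With siRNA 1, 3 of the 7, NDC80, SKA2 and SKA3, had an unadjusted limma p under 0.05, all lower. Of all tested genes, 9.39% were lower by that measure and 19.2% passed it in either direction. NDC80, the microtubule-binding subunit, had signals of 6.81 and 7.09 with siRNA 1, 7.46 and 7.30 with siRNA 2, and 7.21 and 7.35 in the control arrays. Both siRNA 1 arrays were below the other 4. NDC80 changed by -0.33 with siRNA 1 (limma adjusted p = 0.169) and 0.10 with siRNA 2 (0.684), and the siRNAs differed by -0.43 (0.0627). The trend and robust prior called that difference (adjusted p = 0.0365). KNL1, the scaffold for checkpoint proteins, changed by 0.09 and -0.06, its partner ZWINT by -0.11 and 0.10, and KNTC1, a subunit of the RZZ complex, by -0.09 and -0.16, none called.

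The products of the 3 SKA genes form 1 complex that helps NDC80 follow shrinking microtubules. The genes are given in turn, and their patterns were not compared by a test. SKA1, the microtubule-binding subunit, had signals of 8.29 and 8.28 with siRNA 1, 7.93 and 7.80 with siRNA 2, and 8.25 and 8.33 in the control arrays. Both siRNA 2 arrays were below the other 4, and the siRNA 1 arrays lay between the controls. SKA1 fell by 0.42 ± 0.08 (SE) with siRNA 2 (limma adjusted p = 0.0209), changed by -0.0021 with siRNA 1 (0.992), and differed between the siRNAs by 0.42 (interval 0.24 to 0.60, adjusted p = 0.0175). The siRNA 2 call was lost with no filter (adjusted p = 0.151) and without siRNA 2 replicate 1 (0.0527), siRNA 2 replicate 2 (0.121), control replicate 1 (0.0661) or control replicate 2 (0.0934). The difference between the siRNAs was lost with no filter (0.117) and without siRNA 1 replicate 1 (0.0961), siRNA 1 replicate 2 (0.0930) or siRNA 2 replicate 2 (0.0968).

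SKA2, the subunit that joins SKA1 and SKA3, had signals of 7.19 and 7.29 with siRNA 1, 7.75 and 7.74 with siRNA 2, and 7.41 and 7.57 in the control arrays. The siRNA 1 arrays lay below both controls and the siRNA 2 arrays above both. Neither change from the control was called, at -0.25 (limma adjusted p = 0.154) and 0.26 (0.118), but the siRNAs differed by -0.50 (interval -0.70 to -0.31, adjusted p = 0.0114). With the 75th percentile filter the change with siRNA 2 was called (limma adjusted p = 0.0492). The difference was not called with no filter (0.0837) or when 1 array was left out, with 0.0791 and 0.0535 for replicates 1 and 2 of siRNA 1 and 0.0614 and 0.0583 for those of siRNA 2. SKA3 changed by -0.32 with siRNA 1 (limma adjusted p = 0.140) and -0.05 with siRNA 2 (0.842). As for SKA2, both siRNA 1 arrays lay below both siRNA 2 arrays, with a difference in SKA3 of -0.27 (0.157).

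CDCA8 encodes borealin, a subunit of the chromosomal passenger complex that helps target the kinase Aurora B to centromeres. It had the lowest change of the tested members with siRNA 2. Its signal was 7.66 and 7.78 with siRNA 1, 7.05 and 7.13 with siRNA 2, and 8.01 and 8.10 in the control arrays. The 3 groups were separate, with siRNA 2 lowest. CDCA8 fell by 0.96 ± 0.08 (SE) with siRNA 2, that is the signal fell by 48.7% (limma adjusted p = 0.000817), and the siRNAs differed by 0.63 (interval 0.45 to 0.81, adjusted p = 0.00383). Both were called under all 16 alternative settings. These are not all distinct, since leaving out an array of the group not compared repeats the fit to 2 groups. With siRNA 1 CDCA8 changed by -0.33 (limma adjusted p = 0.0648), a change that was called with the replicate number as a block (0.0366), with the 75th percentile filter (0.0203) and with a robust prior and trend (0.0373).

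INCENP, the scaffold subunit of the same complex that activates Aurora B, changed by -0.05 (interval -0.25 to 0.16) with siRNA 1 and 0.05 (interval -0.15 to 0.26) with siRNA 2. AURKB, the gene of that kinase, changed by -0.12 and -0.05, and BIRC5, which encodes the subunit survivin, by -0.16 and -0.12. Both are from the list of further centromere genes and were named after their values were seen. SGO1, which lies outside the complex and protects centromeric cohesin, changed by -0.07 and 0.02. None of these 4 genes was called in any comparison.

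**Figure D3:**
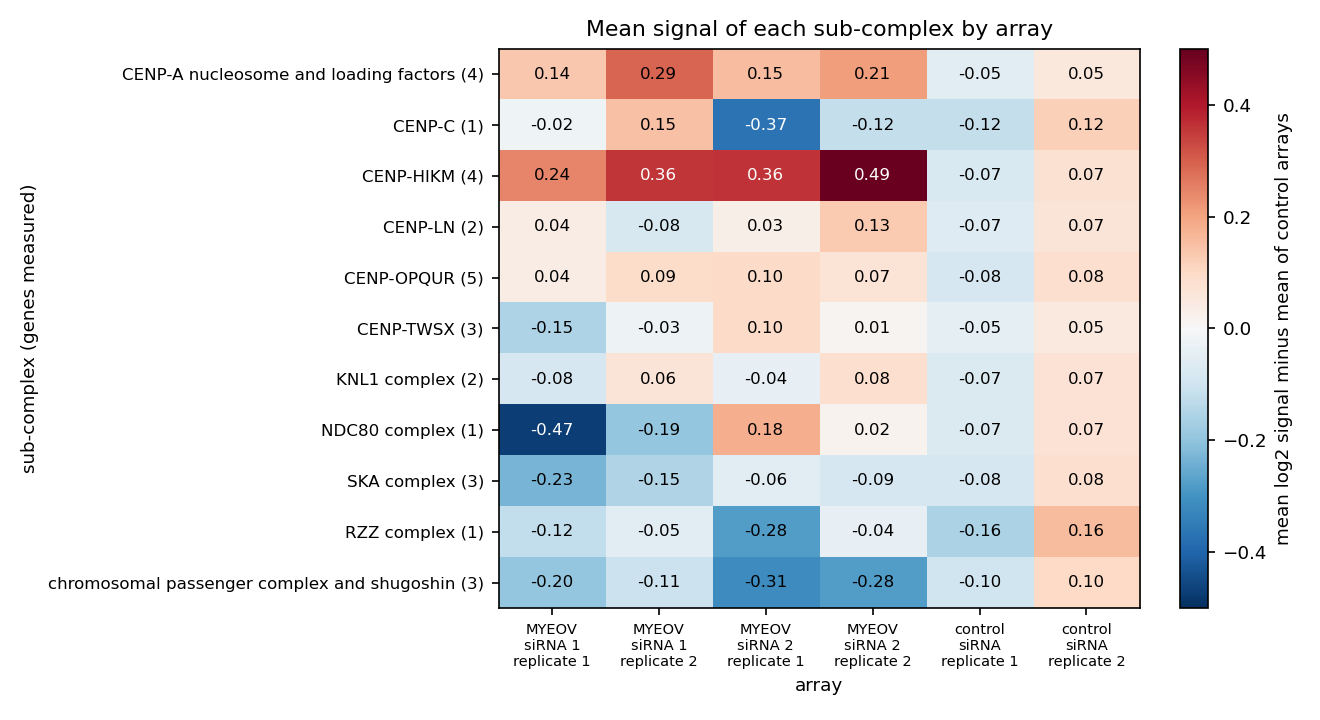
Cells give the mean log2 signal of each sub-complex in each array minus its mean in the 2 control arrays, with the number of measured genes in brackets and colour from blue (lower) to red (higher). The CENP-A nucleosome and loading factors, mainly through MIS18A, and CENP-HIKM, mainly through CENPK, are above both control arrays in all 4 MYEOV siRNA arrays. The chromosomal passenger complex with shugoshin is lowest with siRNA 2, through CDCA8.

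Members that were not called were bounded rather than shown to be unchanged. The intervals' half-widths ran from 0.16 to 0.31 with a median of 0.225 in each comparison. With siRNA 1, 21 of the 25 uncalled members had an interval within 0.5 on either side of 0, and with siRNA 2 20 of 22. The exceptions were CENPM, NDC80, SKA3 and CDCA8 with siRNA 1, and CENPC and CENPM with siRNA 2. All uncalled members had intervals within a log2 change of 1, that is a 2-fold change, in each comparison.

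Replicate number moved with these genes. Replicate 2 was above replicate 1 for 24 of 29 measured members with siRNA 1, 19 of 29 with siRNA 2 and 26 of 29 in the control, with median differences of 0.08, 0.03 and 0.15. Over all tested genes the share was 46.0%, 50.3% and 51.4%. For 18 genes of G2 and mitosis it was 15, 13 and 17, and for 19 genes of G1 and S phase 15, 17 and 16. What the replicate number stands for is not given in the labels, and its part in the results was not tested beyond the block reported here.

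The rest of the machinery gives the setting. Of 19 measured further centromere and kinetochore genes, all tested, 0 were called with siRNA 1 by limma and 1 with siRNA 2, against 4.66% and 6.83% of all tested genes. With each siRNA, 3 of the 19 had an unadjusted p under 0.05, against 19.2% and 22.2% of all tested genes. These counts are near or below the shares of all genes. The called gene was SPDL1, the spindly protein that links RZZ to dynein, with signals of 9.40 and 9.39 with siRNA 1, 8.87 and 9.00 with siRNA 2, and 9.52 and 9.72 in the control arrays. It fell by 0.69 with siRNA 2 (limma adjusted p = 0.00553, and 0.0548 with no filter). NDEL1, a dynein regulator, was not called against the control but differed between the siRNAs by 0.53 (adjusted p = 0.0204, lost with no filter at 0.117 and without siRNA 1 replicate 1 at 0.105 or siRNA 2 replicate 2 at 0.100).

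Of 9 spindle assembly checkpoint genes, 0 were called with siRNA 1 by limma and 1 with siRNA 2, against 4.66% and 6.83% of all tested genes called. Unadjusted, 2 and 3 of the 9 had a p under 0.05, against 19.2% and 22.2% of all tested genes. With siRNA 2, 1 of these was higher and 2 lower. MAD2L1, the checkpoint effector that inhibits CDC20, had signals of 8.07 and 8.08 with siRNA 1, 7.34 and 7.39 with siRNA 2, and 8.18 and 8.46 in the control arrays. Both siRNA 2 arrays lay below the other 4, as for CENPA and SKA1. MAD2L1 fell by 0.95 with siRNA 2 (limma adjusted p = 0.00220), a call kept under all alternatives in which it was tested. The medians of the further centromere genes and of the checkpoint genes were -0.09 and -0.03 with siRNA 1 and -0.05 and 0.05 with siRNA 2.

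Proliferation genes were measured beside these as a value that could move with them. Of 18 genes of G2 and mitosis, 0 were called with siRNA 1 by limma and 1 with siRNA 2, against 4.66% and 6.83% of all tested genes. Unadjusted, 0 and 3 of the 18 had a p under 0.05, against 19.2% and 22.2% of all tested genes. The called gene was MYBL2, a transcription factor of late cell cycle genes, which fell by 0.59 (adjusted p = 0.00379). Their median was -0.08 with siRNA 1 and -0.02 with siRNA 2. Of 19 genes of G1 and S phase, 1 was called lower with siRNA 1, CDC25A at -0.70, and with siRNA 2 CCNE2 was called higher, at 1.08, and GINS1 and CCNE1 lower, at -0.48 and -0.33, against the same 4.66% and 6.83% of all tested genes. Unadjusted, 5 and 8 of the 19 had a limma p under 0.05, against 19.2% and 22.2% of all tested genes. With siRNA 1, 1 of these was higher and 4 lower, and with siRNA 2, 2 were higher and 6 lower. The median of the 19 genes was -0.09 with siRNA 1 and -0.07 with siRNA 2. With the replicate number as a block RRM2 was also called lower with siRNA 1 (limma adjusted p = 0.0378, against 0.0604 without it) and CDC25A with siRNA 2 (0.0481, against 0.0573). CCNE1 and GINS1 lost their calls with no filter (adjusted p = 0.233 and 0.184) and in at least 5 of the 6 fits that left out 1 array, and CDC25A with no filter (adjusted p = 0.0596). In bulk RNA, fewer cells in a cell cycle phase and less RNA per cell cannot be told apart.

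**Figure D4:**
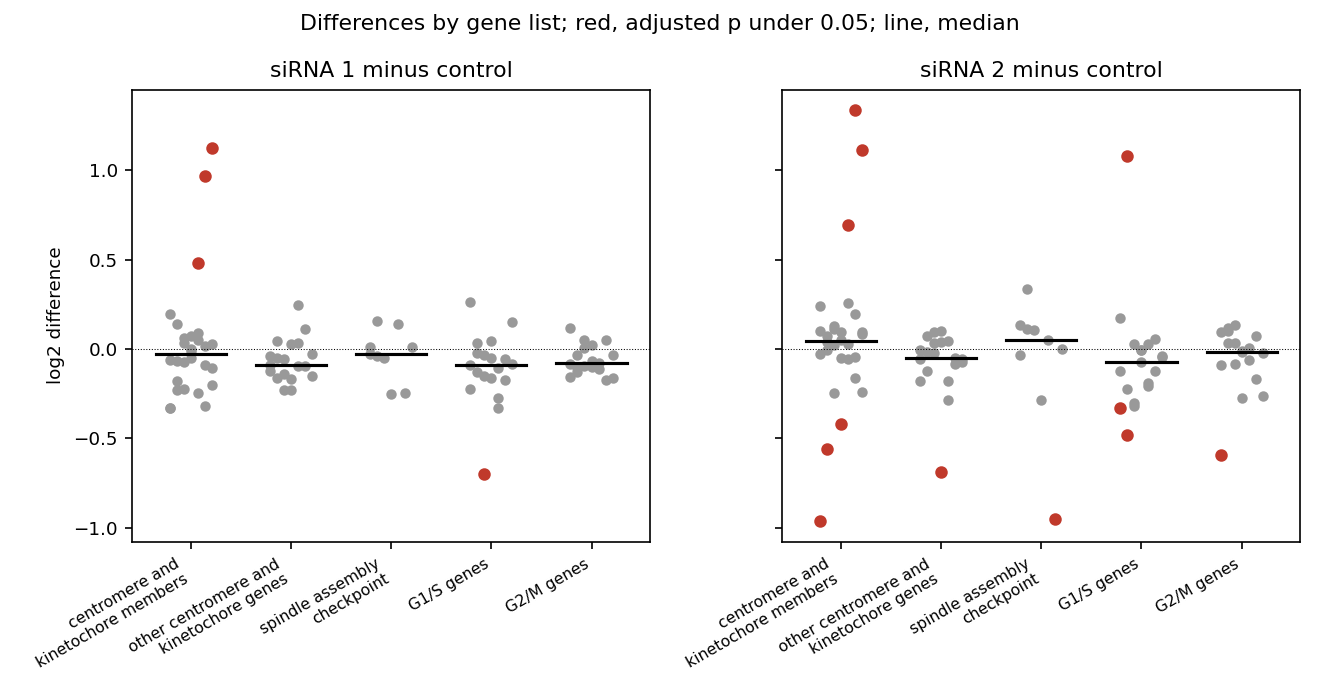
Points are log2 differences of tested genes for siRNA 1 minus control (left) and siRNA 2 minus control (right), by gene list, with called genes in red and a line at each list's median. The medians of all 5 lists lie between -0.09 and 0.05, and most genes of each list are not called.

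The promoters of the called members show which elements of cell cycle promoters lie near them. Of the 37 genes, 31 had an entry in the RefSeq promoter table of GRCh38.p14, and MIS18A, CENPH, CENPM, CENPL, KNL1 and KNTC1 had none. The window ran from 250 bases before to 50 after each gene's start, and letters were searched on both strands. The motif TTTGAA (or TTCAAA), the core of the CHR element that represses cell cycle genes outside late phases, was in 14 of 31 member windows (45.2%) and in 15.4% of all 27305 windows. CCAAT (or ATTGG), bound by NF-Y, was in 20 of 31 (64.5%) and 35.7% of all, GCGGGA (or TCCCGC), part of E2F-type sites, in 16 of 31 (51.6%) and 26.8%, and TTTAAA in 1 of 31 (3.23%) and 12.3%. These genes are known cell cycle genes, and the shares are given with no test. The 250 bases before the start are shown for the called members that had an entry, in capitals where one of these motifs matches.
CENPK (chr5:65563169-65563418, minus strand): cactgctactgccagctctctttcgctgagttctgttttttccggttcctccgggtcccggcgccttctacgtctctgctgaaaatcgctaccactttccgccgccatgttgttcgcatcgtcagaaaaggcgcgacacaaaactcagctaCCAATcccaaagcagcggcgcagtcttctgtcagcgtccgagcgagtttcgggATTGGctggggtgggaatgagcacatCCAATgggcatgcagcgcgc
CENPQ (chr6:49463120-49463369, plus strand): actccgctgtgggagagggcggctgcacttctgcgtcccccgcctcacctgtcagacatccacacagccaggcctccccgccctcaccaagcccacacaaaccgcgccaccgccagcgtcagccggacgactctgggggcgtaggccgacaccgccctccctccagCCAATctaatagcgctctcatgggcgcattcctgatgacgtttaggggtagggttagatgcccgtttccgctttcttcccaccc
CENPA (chr2:26785806-26786055, plus strand): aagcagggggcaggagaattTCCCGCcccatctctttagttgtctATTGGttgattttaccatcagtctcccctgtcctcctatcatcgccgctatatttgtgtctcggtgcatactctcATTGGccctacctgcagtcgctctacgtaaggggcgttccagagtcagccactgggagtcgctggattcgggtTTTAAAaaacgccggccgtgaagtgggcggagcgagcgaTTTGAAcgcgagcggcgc
CDCA8 (chr1:37692266-37692515, plus strand): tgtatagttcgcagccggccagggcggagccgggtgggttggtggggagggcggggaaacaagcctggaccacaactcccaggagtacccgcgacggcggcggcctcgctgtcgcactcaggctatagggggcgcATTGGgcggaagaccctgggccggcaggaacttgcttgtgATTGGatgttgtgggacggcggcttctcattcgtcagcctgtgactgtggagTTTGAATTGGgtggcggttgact
SKA1 (chr18:50374796-50375045, plus strand): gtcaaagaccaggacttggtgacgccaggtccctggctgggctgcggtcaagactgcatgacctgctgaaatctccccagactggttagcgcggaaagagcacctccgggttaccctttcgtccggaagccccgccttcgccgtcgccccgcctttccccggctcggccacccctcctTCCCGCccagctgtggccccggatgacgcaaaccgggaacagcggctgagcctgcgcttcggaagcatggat
SKA2 (chr17:59155187-59155436, minus strand): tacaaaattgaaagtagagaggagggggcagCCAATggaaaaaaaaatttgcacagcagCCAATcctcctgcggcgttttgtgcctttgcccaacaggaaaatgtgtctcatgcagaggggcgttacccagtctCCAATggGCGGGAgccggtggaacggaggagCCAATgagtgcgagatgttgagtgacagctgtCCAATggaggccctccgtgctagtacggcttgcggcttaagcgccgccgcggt
CENPK and CENPQ, the risers shown, hold no TTTGAA in their windows, with 3 CCAAT matches in CENPK and 1 in CENPQ. The 3 members that fell with siRNA 2 each hold 1 TTTGAA, at position -18 in CENPA and -23 in CDCA8 counted from the start, and 34 bases after the start in SKA1, outside the stretch shown. SKA2 holds 5 CCAAT matches and no TTTGAA. Another 8 measured members hold 1 TTTGAA each and were not called against the control: CENPC, CENPN, CENPO, HJURP, INCENP, NDC80, SKA3 and ZWINT. Like the risers shown, OIP5, CENPI, CENPP, CENPU, CENPT, CENPW, CENPX and SGO1 hold no TTTGAA, and they were not called against the control either. A match is a description of the letters and not a binding site, and the promoter of MIS18A was not analysed here.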

How the data were processed

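Values were log2 signals per transcript row, made by the authors with RMA (version not given in the sources used here), per the submitters' processing notes. The scanner files were not used here. RMA compresses differences of dim probes, and 2 arrays per group limit the precision. An exact permutation test of 2 against 2 cannot go below p = 0.333.

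Rows were named through the platform annotation (53617 rows, 16098 with 1 symbol and 37519 with none). For the 779 genes with several rows the row of highest mean was kept. Genes with a mean of at least 5.45 were tested, 7442 of 14884, in 1 fit over all 6 arrays (limma 3.58.1, R 4.3.3) with Benjamini-Hochberg adjustment over all of them. Every member may be named, and genes of the other lists when called. Values in every array are given for members called in any comparison or changed by at least 0.4 with both siRNAs, and for HJURP, NDC80, ITGB3BP, SPDL1 and MAD2L1, added after their values were seen. The members and lists were chosen with earlier results of these data known.

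Deviations of same-numbered arrays from their group means correlated over 7442 genes. The correlation was 0.25 for siRNA 1 and siRNA 2, 0.27 for siRNA 1 and control, and 0.20 for siRNA 2 and control. The numbers may therefore pair the arrays, and this pairing was used only in the alternative fit with a block. It comes from the data, since the labels do not say what a number marks. The fit reported has no block, so its p-values and intervals are not paired. Alternatives were other filters, other row rules, further normalization, fits to 2 groups, the block, other priors, array weights and leaving out each array. Leaving out an array of the group not compared gives the same result as the fit to 2 groups. Promoter sequences are from RefSeq, GRCh38.p14. Figures were drawn with matplotlib 3.10.9.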

Additional observations from a re-analysis of the deposited data

Results flagged for a closer look

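The effects of the siRNAs differed from each other for 5 of 28 tested members (17.9%), against 9.15% of all tested genes called. By the same test 4 of 19 genes of G1 and S phase (21.1%) and 1 of 18 genes of G2 and mitosis were called. So were 2 of 19 further centromere and kinetochore genes and 1 of 9 spindle assembly checkpoint genes. Each of the 5 members was called by the limma test of siRNA 1 minus siRNA 2 adjusted over all tested genes. CENPA was higher with siRNA 1 than with siRNA 2 by 0.70, CDCA8 by 0.63 and SKA1 by 0.42 on the log2 scale. CENPK differed by -0.37 and SKA2 by -0.50, lower with siRNA 1. Both arrays of siRNA 1 lay on the same side of both arrays of siRNA 2 for each of the 5. With no filter only CDCA8 was called. The calls of CENPK, SKA1 and SKA2 were also lost in fits that left out 1 siRNA array.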

How the results depend on the processing

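No direction of a called member reversed under the 16 alternatives, of which CENPQ was tested in 15, since the 75th percentile filter leaves it out. The 16 are not all distinct in a comparison, since leaving out an array of the group not compared repeats the fit to 2 groups. CDCA8 was called under all 16 with siRNA 2 and between the siRNAs. With no filter, which adjusts over 14884 genes, the count of called members was 3 with siRNA 2, against 6, and 1 between the siRNAs, against 5, and over all genes 39, 139 and 195 were called with siRNA 1, with siRNA 2 and between the siRNAs, against 347, 508 and 681. Leaving out 1 array gave 2 to 3 called members with siRNA 1, 4 to 6 with siRNA 2 and 2 to 6 between the siRNAs, while over all genes 58 to 235, 207 to 331 and 226 to 618 were called. The last count was 2 without siRNA 1 replicate 1, siRNA 1 replicate 2 or siRNA 2 replicate 2, and 3 without siRNA 2 replicate 1. With the replicate block the counts were 4, 6 and 7, against 3, 6 and 5, and over all genes 420, 702 and 922 were called: CDCA8 was added with siRNA 1 (limma adjusted p = 0.0366) and HJURP and CENPC between the siRNAs (limma adjusted p = 0.0401 and 0.0308), and the block changed no other call of a member. In the other lists it added RRM2 with siRNA 1 and CDC25A with siRNA 2 among the genes called in any comparison. Signal over background limits ITGB3BP, which was too dim to test. A lone array left in a group is assumed to vary like the other groups.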
